A study of Homo sapiens with 6 samples.

Results

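The genes described here are 10 inhibitors of MAP kinase signalling, listed together as feedback genes of the ERK pathway. The cells were 786-O, an established human clear cell renal carcinoma line. The 10 genes are the dual-specificity phosphatases DUSP1, DUSP4, DUSP5, DUSP6, DUSP8 and DUSP10, the Sprouty genes SPRY1, SPRY2 and SPRY4, and SPRED1. They were taken by name from the deposited table of read counts, which held all 10 among its 58735 genes, and all 10 were among the 14573 that passed the filter on low counts. The study compared cells given a control short hairpin RNA (sh-Control, 3 libraries) with cells given one that targets CBX7 (sh-CBX7, 3 libraries). CBX7 is a chromobox subunit of Polycomb repressive complex 1, and the series title sets it beside RNF26, TNF signalling, proliferation and tyrosine kinase inhibitors. The count columns name the CBX7 libraries siCBX7, and the labels' name is used here. The labels give no clone, passage, time or culture for the libraries, so p-values reflect no more than the spread of these 6 samples, part of which may be technical.

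Growth factor receptors switch on RAS, RAF, MEK and ERK, and active ERK induces transcription of its own inhibitors. The dual-specificity phosphatases remove both activating phosphates from the MAP kinases: DUSP1, DUSP4 and DUSP5 are nuclear and inducible, DUSP6 is cytoplasmic and selective for ERK, and DUSP8 and DUSP10 act mainly on the stress kinases JNK and p38. Sprouty and SPRED proteins act further up, at the membrane, where they restrain the step from receptor to RAS and RAF. The mRNA level of DUSP6, SPRY2 and SPRY4 is widely used as a readout of ERK output.

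Total counts ran from 16384151 to 18868874 per library. CBX7 (ENSG00000100307) itself had 203, 240 and 183 counts in sh-Control and 143, 111 and 142 in sh-CBX7, a log2 fold change of -0.71 (edgeR adjusted p = 5.41e-05, SE 0.13). It was thus lower but still detected in all 3 sh-CBX7 libraries. All 7 renal carcinoma markers passed the filter, 2 being called higher in sh-CBX7 (KRT8 at 0.44 and KRT18 at 0.43 on the log2 scale), 3 lower (CDH6 at -0.85, PAX2 at -0.49 and PAX8 at -0.32) and 2 not called. The lineage factor PAX8 stood at 282 CPM in sh-Control and 226 CPM in sh-CBX7, and the intermediate filament gene VIM at 1826 and 1772 CPM. Of 8 immune markers 3 had no count in any library and no marker exceeded 1.98 CPM; the summed level of these 8 ran from 1.26 to 2.10 CPM in sh-Control and from 0.96 to 2.03 CPM in sh-CBX7. The 5 endothelial markers summed to 2.53 to 3.50 CPM in sh-Control and 3.99 to 5.25 CPM in sh-CBX7, with PECAM1 called higher (0.70), and the 5 fibroblast markers to 10.04 to 11.7 and 11.1 to 12.7 CPM, with LUM called higher (0.73) and COL1A1 lower (-1.03). The part of these markers in the results below was not tested. CPM here is a count relative to the scaled library total (TMM-scaled CPM). The sh-Control replicate 1 library differed more from its group than any other. Bulk RNA cannot tell fewer expressing cells from less RNA per cell.

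Of the 10 genes, 7 rose, 1 fell and 2 did not pass the test between sh-CBX7 and sh-Control (edgeR quasi-likelihood test, Benjamini-Hochberg adjusted over 14573 tested genes). Across all tested genes 26.1% were called higher and 27.2% lower, 53.3% in all, so a call alone is common in this comparison. The 7 that rose were DUSP1, DUSP4, DUSP5, DUSP6, DUSP10, SPRY2 and SPRY4, with log2 fold changes from 0.53 to 1.33, and DUSP8 was the one that fell. DUSP5, DUSP6 and DUSP10 rose by at least 1 on the log2 scale, as did 5.23% of all tested genes. The median log2 fold change over the 10 was 0.71, beside -0.006 over all tested genes. The groups did not overlap for 8 of the 10 genes, where 59.0% of all tested genes did not overlap.

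**Figure D1:**
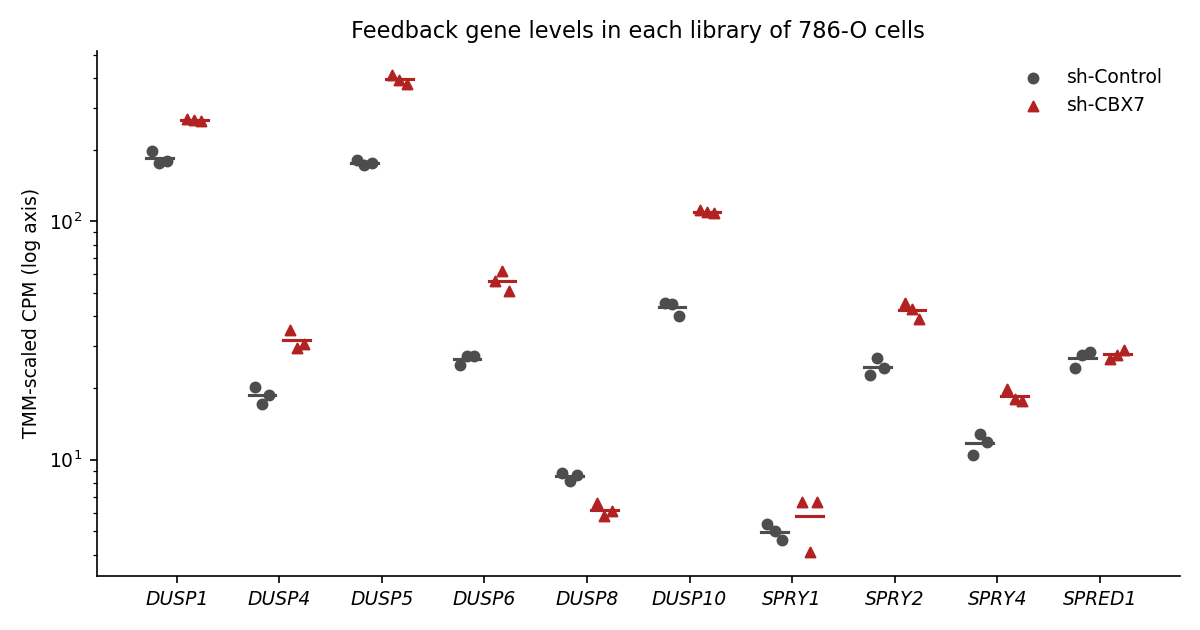
Level of the 10 feedback genes in each library, in TMM-scaled CPM on a log axis; grey circles are the 3 sh-Control libraries, red triangles the 3 sh-CBX7 libraries and short lines the group means. The red points lie above the grey ones for DUSP1, DUSP4, DUSP5, DUSP6, DUSP10, SPRY2 and SPRY4, below them for DUSP8, and overlap their range for SPRED1; for SPRY1, 1 red point lies below the grey ones and the other two above.

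DUSP1 and DUSP8 moved in opposite directions, and the stretches upstream of their RefSeq starts share a short element. Windows from 250 bases before to 50 after a RefSeq start (build GRCh38.p14) were at hand for 8 of the 10 genes, 12 windows in all. No motif was searched for the other 2 genes, which are among DUSP4, DUSP5, DUSP6 and SPRED1. For these genes, no match below may mean no window. The cyclic AMP response element TGACGTCA is the palindrome bound by CREB and ATF factors. Among these 8 genes it was found for DUSP1 and DUSP8 only. That was 2 of the 12 windows, beside 1.85% of all 35116 windows. DUSP1 held 1 copy, 125 to 118 bases before the start, and DUSP8 held 2 copies, 118 to 111 and 74 to 67 bases before the start. The DUSP8 window (chr11:1572222-1572521) lies wholly upstream of the DUSP8 gene of the count table, which begins at 1571920. Its copies are thus further from that gene than from the RefSeq start. For DUSP1 the window (chr5:172771146-172771445) holds the table's gene start, 172771195. The DUSP1 stretch lies at chr5:172771263-172771370 and the DUSP8 stretch at chr11:1572288-1572439, both on the minus strand; the capitals mark the element.
DUSP1: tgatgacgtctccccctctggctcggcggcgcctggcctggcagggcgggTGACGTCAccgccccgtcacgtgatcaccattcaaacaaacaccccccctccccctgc
DUSP8: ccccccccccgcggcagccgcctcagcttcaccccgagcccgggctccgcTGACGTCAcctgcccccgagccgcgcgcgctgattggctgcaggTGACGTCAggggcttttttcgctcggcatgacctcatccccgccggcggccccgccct
The shorter core TGACG, which also lies within the palindrome, was found on either strand for 5 of the 8 genes (DUSP1, DUSP8, DUSP10, SPRY2 and SPRY4). That was 5 of the 12 windows, beside 24.6% of all windows. A TATA box (TATAAA; 11.5% of windows) was found for DUSP1 and the ETS sequence CCGGAAG (10.3% of windows) for SPRY1. The AP-1 sequence TGANTCA (7.71% of windows), the CArG box of serum response factor (1.29%) and the kB site of NF-kB (11.3%) were found in none of the 12 windows. All motifs were searched on both strands, and a match is a match of letters only.

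Among the nuclear phosphatases, DUSP5, which dephosphorylates ERK and anchors it in the nucleus, rose the most. DUSP5 (ENSG00000138166; GRCh38 chromosome 10, 110497838 to 110511544, plus strand) stood at 181, 173 and 175 CPM in sh-Control and at 413, 392 and 379 CPM in sh-CBX7. The lowest sh-CBX7 library lay far above the highest sh-Control library. The means were 176 ± 4.12 and 395 ± 17.2 CPM (SD, n = 3 each), a 2.24-fold rise (log2 fold change 1.16, edgeR adjusted p = 7.15e-14, SE 0.06).

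DUSP1 (ENSG00000120129; chromosome 5, 172768090 to 172771195, minus strand), an immediate early phosphatase that acts on p38, JNK and ERK, rose less. Its level was 197, 176 and 180 CPM in sh-Control and 268, 267 and 263 CPM in sh-CBX7. The 3 sh-CBX7 libraries lay close together, above all 3 sh-Control libraries, of which replicate 1 was the highest. The rise was 1.44-fold (184 ± 11.0 against 266 ± 2.76 CPM, SD, n = 3 each; log2 fold change 0.53, edgeR adjusted p = 5.42e-08, SE 0.06). A larger log2 fold change was found for 15.7% of all tested genes.

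DUSP4 (ENSG00000120875; chromosome 8, 29333064 to 29350668, minus strand), a nuclear phosphatase of ERK and JNK, had 20.1, 17.2 and 18.8 CPM in sh-Control and 35.1, 29.5 and 30.5 CPM in sh-CBX7. Replicate 1 was the highest library in each group, and the groups did not overlap. The gene rose 1.69-fold (18.7 ± 1.49 against 31.7 ± 2.99 CPM, SD, n = 3 each; log2 fold change 0.76, edgeR adjusted p = 8.19e-07, SE 0.10). DUSP2, the fourth nuclear inducible phosphatase, did not pass the filter, with 1, 1 and 0 counts in sh-Control and 3, 4 and 4 counts in sh-CBX7.

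Of the ERK-selective cytoplasmic phosphatases DUSP6, DUSP7 and DUSP9, only DUSP6 is one of the 10 genes, and it rose while DUSP9 fell. DUSP6 (ENSG00000139318; chromosome 12, 89347232 to 89353271, minus strand), a direct transcriptional target of ERK signalling, stood at 24.9, 27.3 and 27.3 CPM in sh-Control and at 56.1, 61.9 and 51.2 CPM in sh-CBX7. The groups were separated by a wide gap, and replicate 2 was the highest of the sh-CBX7 libraries. The rise was 2.13-fold (26.5 ± 1.39 against 56.4 ± 5.34 CPM, SD, n = 3 each; log2 fold change 1.09, edgeR adjusted p = 1.78e-10, SE 0.08).

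DUSP9, a close relative of DUSP6, fell from 9.86, 7.81 and 7.61 CPM in sh-Control to 4.51, 4.05 and 3.61 CPM in sh-CBX7. No library of one group reached the other (log2 fold change -1.05, edgeR adjusted p = 7.81e-06, SE 0.16). DUSP7, the most abundant of the class in sh-Control, had 63.8, 62.6 and 58.8 CPM in sh-Control and 51.8, 56.6 and 57.1 CPM in sh-CBX7. Its log2 fold change was -0.16 (edgeR adjusted p = 0.0492, SE 0.07), a call that sat at the threshold and was lost under 12 of 14 alternative settings.

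The JNK and p38 phosphatases DUSP8, DUSP10 and DUSP16 also split. DUSP10 (ENSG00000143507; chromosome 1, 221701424 to 221742176, minus strand), which inactivates p38 and JNK, had 45.5, 45.0 and 40.1 CPM in sh-Control and 111, 110.0 and 108 CPM in sh-CBX7. The 3 sh-CBX7 libraries lay close together and far above the control libraries. Its 2.52-fold rise had the highest log2 fold change of the 10 genes (43.6 ± 2.97 against 109.8 ± 1.74 CPM, SD, n = 3 each; log2 fold change 1.33, edgeR adjusted p = 1.66e-13, SE 0.07), and 2.89% of all tested genes had a larger one.

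DUSP8 (ENSG00000184545; chromosome 11, 1554044 to 1571920, minus strand), a phosphatase of JNK and p38 best known from brain and heart, had 147, 148 and 140 counts in sh-Control and 124, 96 and 108 in sh-CBX7. In CPM these were 8.84, 8.14 and 8.59 against 6.58, 5.80 and 6.09, each sh-CBX7 library being below each sh-Control library. DUSP8 fell 1.38-fold (8.52 ± 0.35 against 6.16 ± 0.40 CPM, SD, n = 3 each; log2 fold change -0.47, edgeR adjusted p = 0.0059, SE 0.14). DUSP16, the third phosphatase of this class, stood at 26.9, 26.7 and 26.4 CPM in sh-Control and at 18.2, 17.7 and 17.5 CPM in sh-CBX7. It fell as well (log2 fold change -0.58, edgeR adjusted p = 1.21e-05, SE 0.09).

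**Figure D2:**
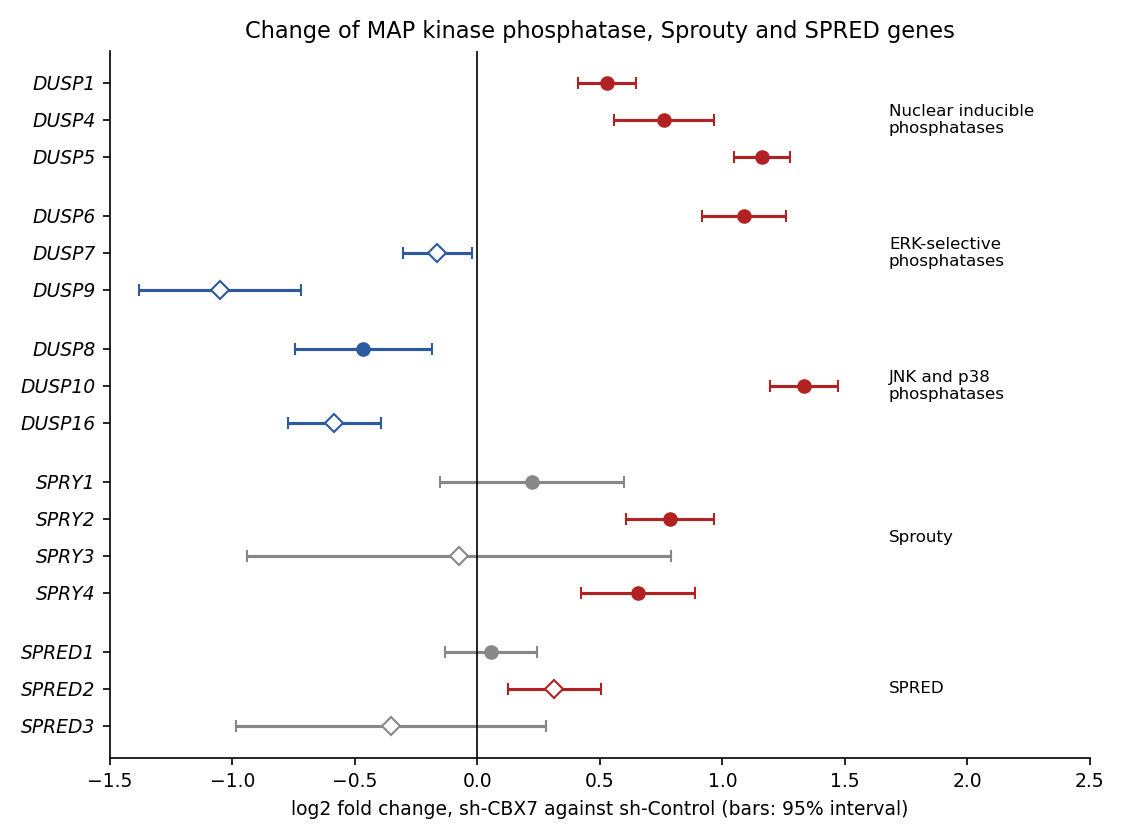
Log2 fold change of sh-CBX7 against sh-Control with its 95% interval from the edgeR fit, by class; filled circles are the 10 feedback genes, open diamonds their relatives, red is called higher, blue called lower and grey not called. DUSP6 at 1.09 and DUSP10 at 1.33 lie opposite their class relatives DUSP9 at -1.05 and DUSP16 at -0.58.

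Of the 4 Sprouty genes, which inhibit receptor tyrosine kinase signalling upstream of RAF, SPRY2 and SPRY4 rose and SPRY1 and SPRY3 were not called. SPRY2 (ENSG00000136158; chromosome 13, 80335976 to 80340951, minus strand) had 22.8, 26.6 and 24.2 CPM in sh-Control and 45.4, 42.8 and 38.8 CPM in sh-CBX7. Every sh-CBX7 library was above every sh-Control library. The rise was 1.73-fold (24.5 ± 1.94 against 42.3 ± 3.35 CPM, SD, n = 3 each; log2 fold change 0.79, edgeR adjusted p = 8.72e-08, SE 0.09).

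SPRY4 (ENSG00000187678; chromosome 5, 142310427 to 142326455, minus strand) stood at 10.5, 12.9 and 11.8 CPM in sh-Control and at 19.8, 18.1 and 17.7 CPM in sh-CBX7. The groups did not overlap, and the gene rose 1.58-fold (11.7 ± 1.21 against 18.5 ± 1.13 CPM, SD, n = 3 each; log2 fold change 0.66, edgeR adjusted p = 3.34e-05, SE 0.11). SPRY4-AS1, an antisense gene that overlaps its 5' end, had 8, 7 and 7 counts in sh-Control and 20, 12 and 10 in sh-CBX7, at most 5.36% of the SPRY4 counts of a library. Whether the counting used strand is not given in the sources used here, so reads where the genes overlap cannot be told apart.

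SPRY1 (ENSG00000164056; chromosome 4, 123396795 to 123403760, plus strand) had the lowest mean count of the 10 genes in each group, with 89, 91 and 75 in sh-Control and 125, 68 and 118 in sh-CBX7. In CPM it stood at 5.35, 5.00 and 4.60 in sh-Control and at 6.63, 4.11 and 6.66 in sh-CBX7, replicate 2 of sh-CBX7 being the lowest of all 6 libraries and the other two sh-CBX7 libraries the highest. Its log2 fold change was 0.22 with a 95% interval from -0.15 to 0.60 (edgeR adjusted p = 0.311). Without sh-CBX7 replicate 2 it was 0.41 (edgeR adjusted p = 0.0492), and without sh-CBX7 replicate 1 or 3 it was 0.12, so the value moved with each sh-CBX7 library. SPRY3 was near the detection limit, at 0.82 ± 0.43 against 0.79 ± 0.10 CPM (SD, n = 3 each; log2 fold change -0.08, SE 0.42).

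SPRED1 (ENSG00000166068; chromosome 15, 38252326 to 38357249, plus strand), which brings the RAS inhibitor neurofibromin to the membrane, stood at 24.2, 27.4 and 28.4 CPM in sh-Control and at 26.5, 27.5 and 29.01 CPM in sh-CBX7. The groups overlapped. Its log2 fold change was 0.05 with a 95% interval from -0.13 to 0.24 (edgeR adjusted p = 0.634), so a rise as large as that of SPRY4 or DUSP1 lay outside the interval. Without sh-Control replicate 1 the value was -0.01. SPRED2, its relative, had 26.6, 26.1 and 30.3 CPM in sh-Control and 32.3, 38.5 and 32.4 CPM in sh-CBX7 and rose (log2 fold change 0.31, edgeR adjusted p = 0.006, SE 0.09); without sh-CBX7 replicate 2, its highest library, the log2 fold change was 0.23 and the adjusted p = 0.0734. SPRED3 had a log2 fold change of -0.35 (SE 0.31) at under 3 CPM in each library, and ran from -0.55 without sh-CBX7 replicate 1 to -0.24 without sh-Control replicate 3.

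Levels were compared between genes as CPM per kilobase of the gene length in the table, a length that covers all annotated exons and so lowers the value of genes with long rare exons. In sh-Control, DUSP1 had the highest level of the 10, 91.2 ± 5.44 CPM per kilobase, followed by DUSP5 at 67.5 ± 1.58 and DUSP10 at 14.9 ± 1.02 (SD, n = 3). In sh-CBX7 the order of the first 2 was the other way round, with DUSP5 at 151 ± 6.60 and DUSP1 at 132 ± 1.37 CPM per kilobase. The next genes in sh-Control were SPRY2 at 8.07, DUSP6 at 5.72, SPRED1 at 3.23 and DUSP4 at 2.58 CPM per kilobase, and the last were DUSP8 at 1.85, SPRY4 at 1.79 and SPRY1 at 1.26. DUSP8 and SPRY4 overlapped in sh-Control, and no other neighbours in that order did. In sh-CBX7 the neighbours SPRY2 and DUSP6 (13.9 and 12.2 CPM per kilobase) overlapped, as did SPRY1 and DUSP8 (1.46 and 1.33) at the low end.

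The make-up of each phosphatase class differed between the groups, measured as a share of the class's summed level per kilobase within a library, which does not depend on scaling between libraries. Among DUSP6, DUSP7 and DUSP9, the DUSP6 share was 26.6%, 29.8% and 30.9% in sh-Control and 52.8%, 53.8% and 49.2% in sh-CBX7. The DUSP9 share went the other way, 15.4% ± 1.88 against 6.25% ± 0.73 (SD, n = 3 each), while the summed level of the class was 19.7 ± 0.59 against 23.4 ± 1.27 CPM per kilobase. The class total thus changed less than DUSP6 or DUSP9 did.

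Among DUSP8, DUSP10 and DUSP16, the DUSP10 share of the summed level was 69.6% ± 1.41 against 89.5% ± 0.21 (sh-Control against sh-CBX7; SD, n = 3 each). DUSP8 held 8.61%, 8.06% and 9.19% in sh-Control and 3.33%, 2.98% and 3.19% in sh-CBX7. The summed level of this class was 1.96-fold higher in sh-CBX7 (42.1 ± 0.71 against 21.5 ± 1.06 CPM per kilobase). Among DUSP1, DUSP4 and DUSP5, DUSP5 went from 41.9% ± 0.88 to 52.6% ± 0.78 and DUSP1 from 56.5% ± 0.83 to 45.9% ± 0.87, while DUSP4 held 1.60% and 1.52% with overlapping libraries. Within SPRY1, SPRY2 and SPRY4, SPRY2 was the main transcript in each library, 72.6% ± 0.68 in sh-Control and 76.5% ± 2.19 in sh-CBX7, and the SPRY4 share overlapped. The long gene length used for SPRY4 lowers its share and raises that of SPRY2. With 3 libraries against 3 an exact permutation test cannot go below p = 0.1, so none was run on these shares.

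**Figure D3:**
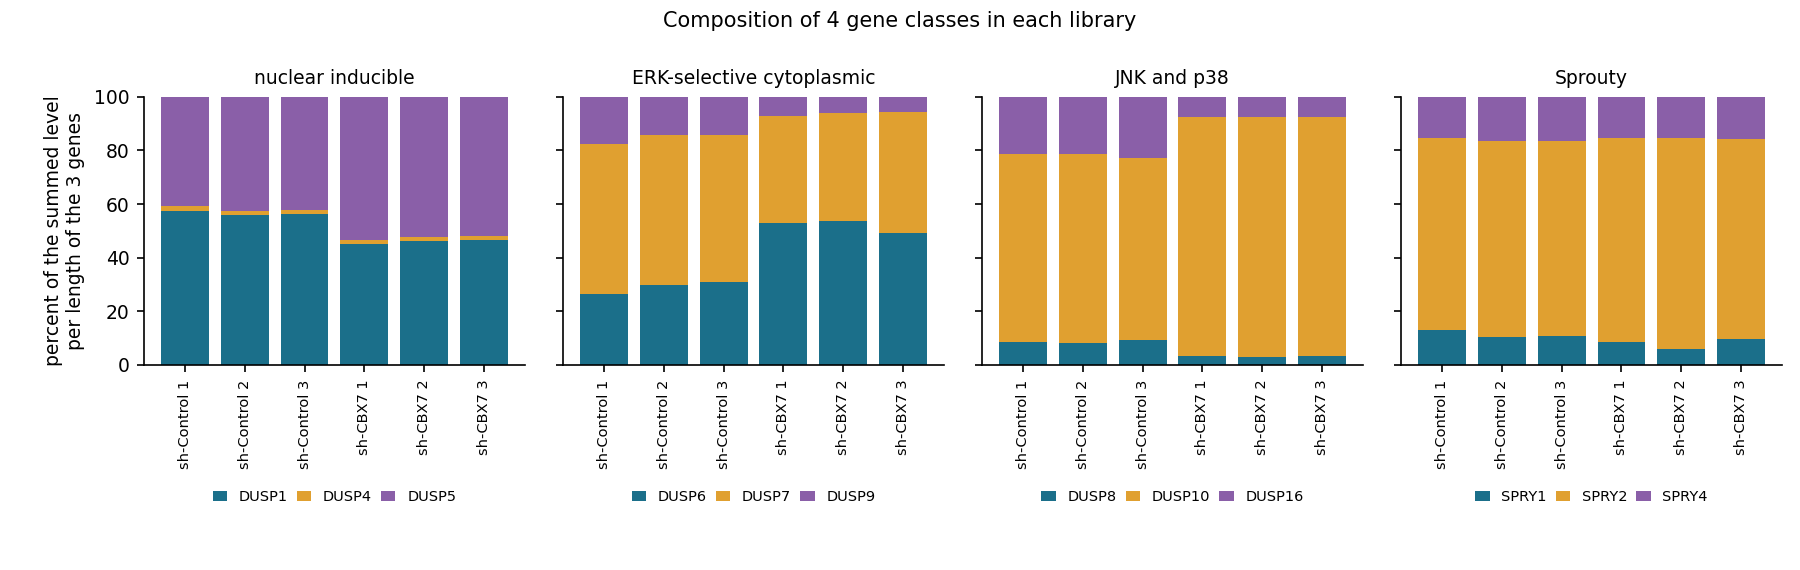
Share of the summed level per kilobase taken by each gene of 4 classes, in percent, with 1 stacked bar per library. In the 3 sh-CBX7 bars, DUSP6 takes 49.2% to 53.8% of its class and DUSP10 89.3% to 89.7%, while SPRY2 takes 71.8% to 78.8% of the Sprouty bars over all 6 libraries.

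The coefficient of variation of the 10 genes between libraries of a group had a median of 7.17% in sh-Control and 6.27% in sh-CBX7. It was highest for SPRY1 in sh-CBX7, 25.3%, where counting error alone gives 9.82%. DUSP8 varied by 4.16% and 6.42%, below the 8.30% and 9.56% of counting error, and SPRY1 in sh-Control by 7.502%, below 10.8%. In sh-CBX7, DUSP1 at 1.04% and DUSP10 at 1.59% also lay below their counting error of 1.46% and 2.27%, as did SPRED1 at 4.49% beside 4.52%.

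By distance between profiles centred over the 6 libraries, on the log2(CPM + 0.5) scale, the genes most like DUSP6 among 10266 other protein-coding genes whose mean reached 5 CPM were KIAA1217, PMAIP1 and RRAGC. Their root mean squared distances were 0.05, 0.05 and 0.06. PMAIP1, a BH3-only cell death gene, had 115, 132 and 123 CPM in sh-Control and 249, 273 and 250 CPM in sh-CBX7, with replicate 2 highest in each group. Of the other 9 feedback genes DUSP5 was the nearest, at rank 49, followed by SPRY2 at rank 263 and DUSP10 at rank 278.

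The remaining genes of the pathway were described from lists, each beside the 26.1% of tested genes called higher and the 27.2% called lower. Of 29 tested genes used as transcriptional output of ERK, 16 rose and 8 fell, with a median log2 fold change of 0.34. The ligand gene HBEGF went from 29.5 ± 3.74 to 98.3 ± 3.27 CPM (SD, n = 3 each; log2 fold change 1.74), the stress factor ATF3 had 1.27, and the early response genes IER2 and IER5 had 0.90 and 0.84. In the opposite direction the cytokine IL11 had -1.26 and EGR1, the classical early response transcription factor, had 9.50, 9.51 and 9.08 CPM in sh-Control and 0.64, 1.33 and 0.73 CPM in sh-CBX7 (log2 fold change -3.39, edgeR adjusted p = 1.15e-11, SE 0.22). EGR1 and DUSP6 therefore lay on opposite sides of 0, and 4.63% of tested genes had a larger log2 fold change than DUSP6.

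The core of the cascade was lower more often than higher. Of 24 tested adaptor, scaffold, RAS, RAF, MEK, ERK and RSK genes, 10 fell and 3 rose (median log2 fold change -0.11). One of the 3 that rose, a scaffold gene, had only 6 to 21 counts per library. Without sh-Control replicate 3 only 1 was called higher. NRAS fell from 101 ± 9.53 to 41.6 ± 2.05 CPM (SD, n = 3 each; log2 fold change -1.28), the MEK2 gene MAP2K2 had -1.01, the ERK1 gene MAPK3 -0.70 and ARAF -0.40, while the adaptor SHC1 had 0.34. Of 11 genes in the list of JNK and p38 kinases and the MAP2K kinases that activate them, 5 rose and 1 fell (median 0.16). The p38 genes MAPK11, MAPK13 and MAPK12 had 0.77, 1.32 and 0.25, MAPK10 0.54, MAP2K7 0.44 and MAP2K3 -0.57. The MAPK10 call was lost under 3 of 14 alternatives: with DESeq2, without sh-Control replicate 3 and without sh-CBX7 replicate 2, where its log2 fold change was 0.38 (edgeR adjusted p = 0.126).

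Other regulators of the pathway, most of them brakes, went both ways, with 9 of 17 tested genes higher and 3 lower (median log2 fold change 0.24). PEA15, which holds ERK in the cytoplasm, had 0.83, the early response gene IER3 1.00, the RAF inhibitor PEBP1 0.41 and the EGFR inhibitor ERRFI1 0.39. The tyrosine phosphatase PTPN1 had -1.54 and the RAS GTPase-activating gene RASA1 -1.51, the latter falling from 44.2 ± 5.61 to 15.6 ± 1.06 CPM (SD, n = 3 each). Of 10 tested atypical dual-specificity phosphatases, which lack the kinase-binding domain of the 10 feedback genes' DUSPs, 5 rose and 1 fell (median 0.27). DUSP3 had 0.95, DUSP28 0.53, DUSP22 0.42, DUSP12 0.31, DUSP11 0.24 and DUSP14 -0.37; the 5 called higher became 3 without sh-Control replicate 3, and the 1 called lower became 2 without sh-CBX7 replicate 3. The DUSP28 call was lost in 2 and the DUSP11 call in 4 of 14 alternatives.

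**Figure D4:**
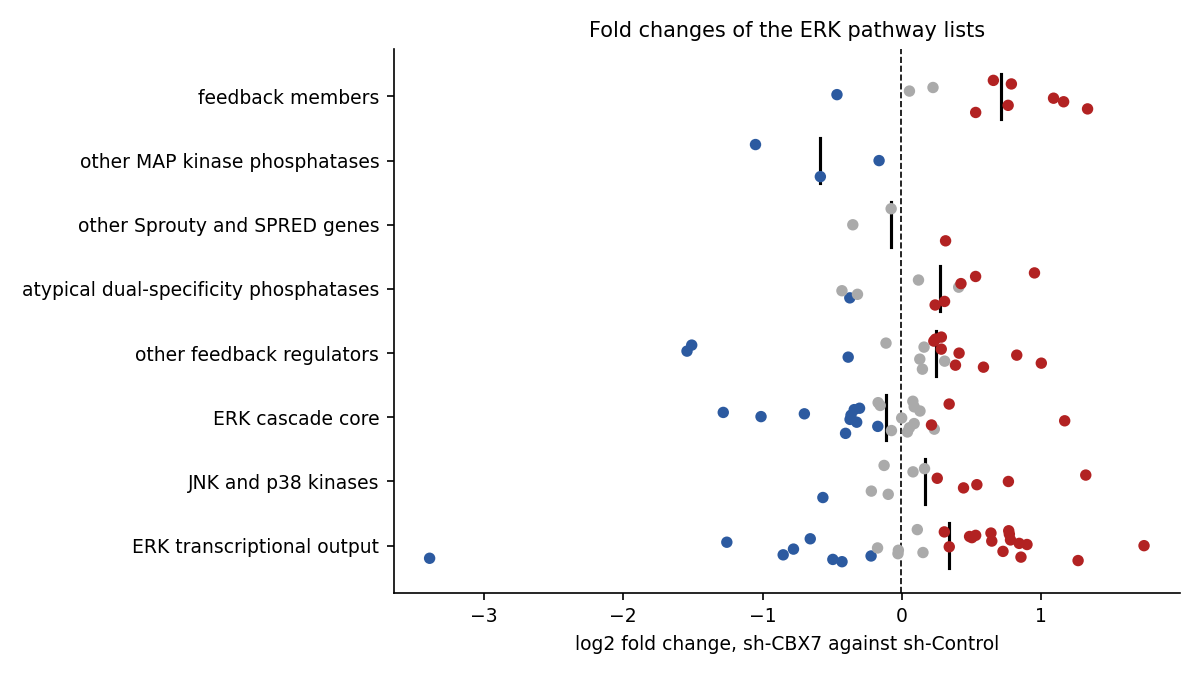
Log2 fold change of each tested gene in 8 lists, with the 10 feedback genes at the top; red is called higher, blue called lower, grey not called, black bars are list medians and the dashed line is the median of all tested genes. The 10 feedback genes have a median of 0.71 and the 24 tested core genes of the cascade -0.11. The other MAP kinase phosphatases have -0.58, but only 3 were tested. The point at -3.39 is EGR1.

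The feedback genes had few exons. In GENCODE 29 the chosen coding transcript had 2 exons for SPRY2 and SPRY4, 3 for DUSP6 and SPRY1, 4 for DUSP1, DUSP4, DUSP5 and DUSP10, and 7 for DUSP8 and SPRED1. Their median was 4, beside 9 over 12411 tested genes with such a transcript. The AU-rich heptamer TATTTAT, a mark of unstable early response transcripts, was found in the 3' UTR of 6 of the 10, beside 33.4% of all these genes and 46.0% of the 7986 genes with a 3' UTR of at least 672 bases, the shortest of the 10. DUSP1 held 3 copies in that shortest 3' UTR and SPRED1 5 in the longest, of 5585 bases, while DUSP5, DUSP6, DUSP10 and SPRY4, which all rose, held none.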

How the data were processed

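Poly-A selected RNA of 6 libraries of 786-O cells was sequenced, 3 per group, from a directional kit per the labels' protocols. The authors deposited whole-number read counts per gene without normalization. HISAT2 2.0.5, featureCounts 1.5.0-p3, FastQC and Trimmomatic are named in the submitters' processing notes, with no order or strand setting. Those notes name hg19, whereas 58724 of 58735 genes (99.98%) in the deposited table matched GENCODE 29 (GRCh38) at start and end, so GRCh38 positions are given. The gene length column, another deposited value, served for levels per kilobase.

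Genes were filtered with filterByExpr, scaled with TMM and compared without pairing by the edgeR 4.0.16 quasi-likelihood test (R 4.3.3), Benjamini-Hochberg adjusted over 14573 genes and called below 0.05. Each SE is the absolute log2 fold change over the square root of F. CPM used TMM-scaled totals of tested genes. The procedure was also run on simulated counts in which few genes changed, equally up and down. That setting differs from this comparison, where 53.3% of tested genes were called, so it does not check the scaling here. No 2 libraries were alike within sampling noise (chi-square per gene at least 2.85 within groups, highest between sh-Control replicates 1 and 2, 9.23). SPRY1 and DUSP8, the lowest of the 10 genes, had 68 to 148 counts per library, where counting error is largest.

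The 10 genes and the lists were chosen with earlier results of these data known. Named genes were the 10, CBX7, RNF26, all tested relatives in the DUSP, Sprouty and SPRED families listed, up to 6 genes per other list by smallest p, and 3 genes nearest to DUSP6; 1 of the genes so chosen is not reported here. RNF26, from the series title, had a log2 fold change of -0.88 (SE 0.07). Alternatives were DESeq2 1.42.0, limma 3.58.1 voom, 3 other scalings, 2 other filters, the replicate number as a block, and leaving out each library. Promoter windows came from RefSeq.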

Additional observations from a re-analysis of the deposited data

How the results depend on the processing

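Direction and call held under all 14 alternatives for 8 of the 10 feedback genes; SPRY1 and SPRED1 were the exceptions. The number of the 10 called higher was 7, and 8 without sh-CBX7 replicate 2, where SPRY1 passed; 1 was called lower throughout. SPRED1, not called in any fit, ran from -0.011 to 0.098 when 1 library was left out, the negative value being that without sh-Control replicate 1. SPRY3, also never called, had 0.025 with limma voom, and without 1 library it ran from -0.30 to 0.45; the cause was not tested. Under a replicate block 3972 genes were called higher and 4126 lower, in place of 3799 and 3967, and the calls of the 10 genes were the same. Deviations of libraries with the same number correlated at 0.06, 0.06 and 0.04, under the 0.1 asked for, so the numbers were not taken as pairs; each library correlated best with its own number. DESeq2 called 3347 genes higher and 3445 lower. The median of all genes moved by less than 0.1 under every scaling. Of 41 other genes chosen by the naming rule 35 kept direction and call throughout; the exceptions were DUSP7, DUSP11, DUSP28, MAPK10, SPRED2 and SPRY3. Low counts limit SPRY1 and DUSP8, with 68 to 148 per library, and among the relatives SPRY3 and SPRED3.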
